A study of Mus musculus with 27 samples.

Results

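The SR proteins, hnRNPs and SF3 subunits are families of pre-mRNA splicing factors, and their mRNA was followed here in mouse spleen B cells at rest, after a short stimulation, and after stimulation in the presence of disulfiram (DSF). Members were taken by gene symbol and biotype alone, as protein-coding genes named Srsf followed by a number, names beginning with Hnrnp, and Sf3a or Sf3b followed by a number. The rule found 40 of 54532 genes in the deposited tables, namely 11 SR proteins, 20 hnRNPs and 9 SF3 subunits. No measured value entered the choice. Hnrnpa1l2-ps and Hnrnpa1l2-ps2 carried an hnRNP name but were listed as pseudogenes and were left out.

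Splicing removes introns through the spliceosome, which assembles step by step on each intron. SR proteins bind exons and draw the spliceosome to nearby splice sites through a tail rich in arginine and serine, whereas many hnRNPs coat the nascent transcript and counter the use of splice sites, so the balance of both helps set which exons a cell keeps. The SF3a and SF3b complexes belong to the U2 small nuclear ribonucleoprotein and hold it on the branch point of the intron.

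All 27 libraries were polyadenylated RNA from negatively selected splenic B cells of WT C57BL6 mice, harvested 3 h after the stimulus. In experiment 1, unstimulated cells, cells given lipopolysaccharide (LPS, a T-independent stimulus), cells given interleukin-4 and anti-CD40 antibody (IL-4+anti-CD40, a T-dependent stimulus) and cells given each stimulus with 1 µM DSF were sequenced as 4 libraries per group. DSF is a drug for alcohol dependence that blocks aldehyde dehydrogenase. In experiment 2 the same 5 conditions, and both stimuli with 1 µM ibrutinib, an inhibitor of Bruton's tyrosine kinase, were sequenced as 1 library each. Cells without a drug received its solvent, DMSO. The labels do not say whether replicates came from separate mice. The paper calls its 4 RNA-seq samples per group biologically independent, without saying whether they were separate mice or cultures. The p-values thus measure the spread between these libraries, which may be partly technical. Unstimulated and IL-4+anti-CD40 libraries stood in pairs, 1 with 2 and 3 with 4. Their p-values may therefore rest on fewer independent units than 4 libraries.

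Depth was 17804851 to 23632992 counts per library in experiment 1 and 16049295 to 24619776 in experiment 2, and members took 1.26 to 1.83% of the counts in experiment 1. The summed FPKM (fragments per kilobase of gene length, with the authors' scaling per library) of 8 B cell markers was 2418 to 3376 in the unstimulated libraries and 1159 to 1816 in all others. The 8 T cell markers summed to 9.55 to 15.9. Of these, Cd3d, Cd3e, Cd3g, Cd4, Cd8a and Cd8b1 averaged under 1 FPKM in every group, whereas Trac and Lck averaged 1 FPKM or more in each. In bulk samples fewer cells of a type and less RNA per cell cannot be told apart. The unstimulated libraries stood in pairs, with 7 neutrophil markers at 81.9 in libraries 1 and 2 against 17.4 and 23.2 in libraries 3 and 4, and 6 erythroid markers at 3.73 and 2.97 against 15.6 and 17.7. Counts for each stimulus alone against unstimulated cells are therefore also given for either pair alone.

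In resting B cells the members spanned a wide range of levels. Of the SR proteins, Srsf5 stood highest at 129 ± 14.3 FPKM (SD, n = 4), followed by Srsf7 at 81.8 ± 9.90 and Srsf2 at 79.7 ± 20.8, which lay within each other's spread. Srsf4 was low at 8.57 ± 0.917, and Srsf12 averaged under 0.05 FPKM in every group of experiment 1 and was too sparse to test, which left 39 members tested. Hnrnpa1, which mostly represses exons, led its family at 241 ± 18.9 FPKM, ahead of its relative Hnrnpa2b1 at 137 ± 6.20. Hnrnpll, a repressor of variable exons of the CD45 transcript in lymphocytes, was lowest at 0.368 ± 0.0332. Among the SF3 subunits, Sf3b2 stood at 103 ± 4.75 and Sf3b1, the subunit that encloses the branch point, at 66.5 ± 2.70, whereas Sf3b5 was lowest at 9.51 ± 0.512.

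The family sums moved apart over the 5 conditions. Summed over the 11 SR genes, FPKM was 561 ± 36.7 (SD, n = 4) in unstimulated cells, 937 ± 17.7 with LPS and 969.8 ± 20.8 under IL-4+anti-CD40, and with DSF added it was 1199 ± 15.3 and 1141 ± 58.0. The hnRNP sum was 1443 ± 59.2 in unstimulated cells, 1907 ± 40.8 and 2157 ± 98.2 with the stimuli, and 2245 ± 27.6 and 2301 ± 67.5 with DSF. For the SF3 subunits the same order gave 342 ± 19.8, 413 ± 4.80 and 438 ± 28.1, and 387 ± 9.94 and 406 ± 5.38 with DSF, so this sum was lower on average with DSF than with the stimulus alone while the other sums were higher. These sums follow the most abundant genes of each family and were not tested. They also carry the library scaling of the deposited FPKM, which is not that of total counts, and were not recomputed under total counts. Sums that lie close, such as 2157 and 2301 for the hnRNPs under IL-4+anti-CD40 without and with DSF, may change order with the scaling.

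**Figure D1:**
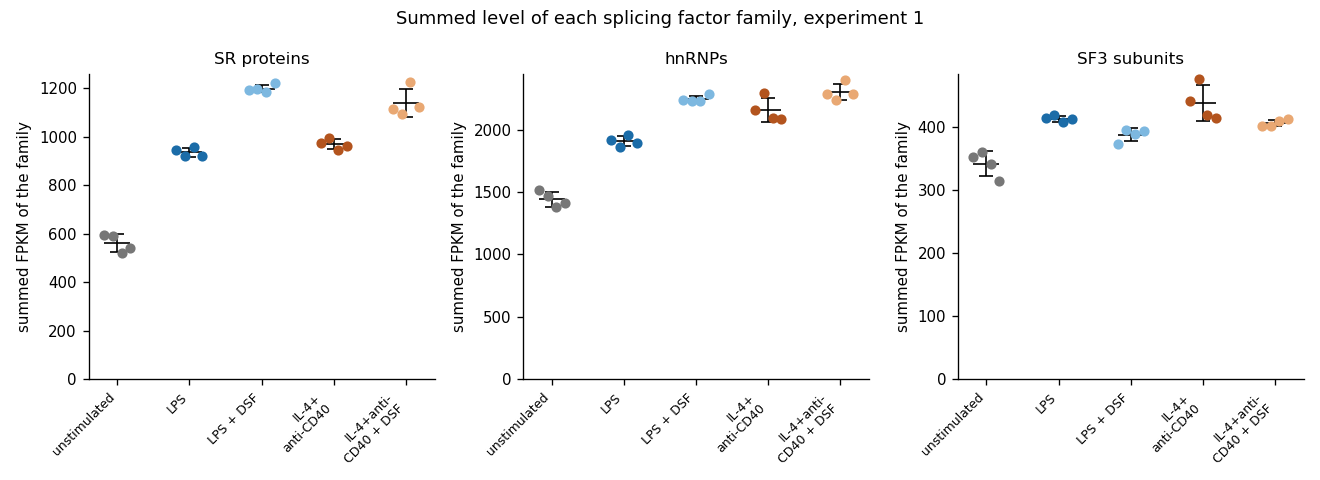
Summed FPKM of each family (y axis, linear from 0) in the 5 groups of experiment 1; points are libraries, the dash and bars are the mean and SD of 4 libraries. In the deposited FPKM, SR and hnRNP sums were highest on average with DSF, whereas the SF3 sum fell between the stimulated and unstimulated means when DSF was added. Sums were not recomputed under total counts.

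Promoter sequence is shown for 4 members that moved in opposite directions under DSF, since the comparisons with DSF turn on them. Sf3a1 and Srsf9 fell with DSF, and Sf3b1 and Hnrnpa2b1 rose. Each sequence holds the 200 bases before the RefSeq start on GRCm38.p6, read 5′ to 3′ on the strand of the gene, for Sf3a1 (chr11:4160154-4160353, plus strand), Srsf9 (chr5:115326977-115327176, plus strand), Sf3b1 (chr1:55027479-55027678, minus strand) and Hnrnpa2b1 (chr6:51469895-51470094, minus strand). Capitals mark matches, on either strand, to 5 searched motifs.
Sf3a1: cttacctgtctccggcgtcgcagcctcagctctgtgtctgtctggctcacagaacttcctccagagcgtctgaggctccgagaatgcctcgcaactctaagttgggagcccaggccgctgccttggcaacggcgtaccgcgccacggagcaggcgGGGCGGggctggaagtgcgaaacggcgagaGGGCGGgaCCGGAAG
Srsf9: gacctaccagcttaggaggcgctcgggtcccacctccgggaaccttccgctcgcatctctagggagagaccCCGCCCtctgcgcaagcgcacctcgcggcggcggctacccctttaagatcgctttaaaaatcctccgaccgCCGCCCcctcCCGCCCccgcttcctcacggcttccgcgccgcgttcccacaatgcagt
Sf3b1: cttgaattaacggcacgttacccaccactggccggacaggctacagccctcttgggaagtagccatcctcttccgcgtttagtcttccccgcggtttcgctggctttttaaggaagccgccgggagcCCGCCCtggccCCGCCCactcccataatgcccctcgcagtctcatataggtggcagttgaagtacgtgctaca
Hnrnpa2b1: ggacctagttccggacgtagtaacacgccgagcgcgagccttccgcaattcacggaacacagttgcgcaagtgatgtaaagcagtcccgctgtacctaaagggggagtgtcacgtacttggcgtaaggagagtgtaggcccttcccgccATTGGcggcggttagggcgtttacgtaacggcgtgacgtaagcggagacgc
The motifs were the E-box CACGTG, the cAMP response element TGACGTCA, the ETS core CCGGAAG, the CCAAT box CCAAT and the GC box GGGCGG, and matches were allowed to overlap. RefSeq windows matched 36 of the 40 members, and several starts of some genes gave 49 windows, some of which overlap. The ETS core lay in 6 of 8 SF3 windows (75%), 3 of 14 SR windows (21.4%) and 3 of 27 hnRNP windows (11.1%), beside 6.29% of all 32851 windows. The GC box lay in 92.9% of SR, 66.7% of hnRNP and 37.5% of SF3 windows, beside 31.0% of all. The CCAAT box lay in 59.3% of hnRNP, 37.5% of SF3 and 21.4% of SR windows, beside 29.3% of all. The E-box was found in 6.12% of member windows, beside 5.26% of all, and the cAMP response element in 0 of 49, beside 1.47%. These are matches of letters, and windows were not matched for base composition.

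The first comparison asked how LPS changed the splicing factors. LPS raised most of them within 3 h: 30 of the 39 tested members rose and 5 fell at an adjusted p under 0.05, beside 29.6% and 33.3% of the 14477 genes tested. By family, 9 of 10 SR proteins (median log2 fold change 0.79), 15 of 20 hnRNPs (0.38) and 6 of 9 SF3 subunits (0.43) rose, against a median of -0.046 over all genes. The 5 that fell were Hnrnpll, Hnrnph3, Hnrnpl, Hnrnpul1 and Hnrnpul2, all hnRNPs.

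Srsf7, an SR protein with a zinc knuckle, rose most among the SR proteins, from 92.1, 87.2, 69.8 and 77.9 FPKM in the unstimulated libraries to 196, 184, 201 and 194 with LPS. Every LPS library lay above every unstimulated one, and the log2 fold change was 1.26 ± 0.088 (SE, adjusted p = 6.3e-06). Srsf2, also called SC35, was 94.9, 100.2, 64.5 and 59.2 FPKM at rest and 176, 175, 179 and 169 with LPS. Its unstimulated libraries fell into the same pairs as the neutrophil markers, yet all stayed below the LPS libraries, and its log2 fold change was 1.15 ± 0.16 (SE, adjusted p = 2.8e-04). Srsf1, a prototype of the family, and Srsf3, the smallest, rose by 0.90 and 0.80 on the log2 scale, whereas Srsf5 gave 0.013 ± 0.094 (SE, adjusted p = 0.91).

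Hnrnpab rose most among the hnRNPs, from 104, 97.2, 86.4 and 83.2 FPKM to 203, 208, 221 and 209, without overlap and with a log2 change of 1.20 ± 0.077 (SE, adjusted p = 4.2e-06). Hnrnpc, which binds uridine tracts and keeps cryptic exons out, rose by 0.77. The largest fall was that of Hnrnpll, whose FPKM of 0.385, 0.330, 0.404 and 0.353 at rest and 0.234, 0.210, 0.238 and 0.159 with LPS rest on 94 to 120 and 34 to 58 counts per library, with a log2 change of -0.79 ± 0.17 (SE, adjusted p = 0.0030). Hnrnph3, a relative of the G-tract binding factor Hnrnph1, went from 10.6, 10.4, 13.3 and 14.2 FPKM to 7.54, 8.25, 7.54 and 7.51, a change of -0.64 ± 0.12 (SE, adjusted p = 0.0017). All LPS libraries lay below all unstimulated ones for both genes.

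Sf3b3, a scaffold subunit of SF3b, rose most among the SF3 subunits, from 29.6, 29.8, 24.0 and 22.5 FPKM to 51.4, 50.5, 49.2 and 49.97, with a log2 change of 0.94 ± 0.093 (SE, adjusted p = 4.0e-05) and no overlap. Sf3a2 and Sf3a3, partners in SF3a, rose by 0.58 and 0.47, while Sf3a1, Sf3b1 and Sf3b2 gave -0.013, -0.082 and 0.090 and did not pass.

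Against the same unstimulated libraries, IL-4+anti-CD40 raised 32 of the 39 tested members and lowered 4, beside 30.4% and 32.1% of the 14433 genes tested. By family, 9 of 10 SR proteins (median log2 fold change 0.84), 16 of 20 hnRNPs (0.59) and 7 of 9 SF3 subunits (0.52) rose, against a median of -0.041 over all genes. Those that fell were Hnrnph3, Hnrnpul1, Hnrnpul2 and Sf3b1.

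Srsf2 rose most, from the resting values above to 196, 205, 198 and 205 FPKM, a log2 change of 1.36 ± 0.16 (SE, adjusted p = 1.0e-04) with no overlap. Srsf7 reached 182, 181, 168 and 168 FPKM and rose by 1.12. Hnrnpab again rose most among the hnRNPs, to 230.0, 257, 216 and 214 FPKM, a change of 1.33 ± 0.10 (SE, adjusted p = 7.9e-06), and Hnrnpc rose by 1.09. Sf3b3 led the SF3 subunits with 51.0, 54.9, 49.8 and 47.4 FPKM and 0.96 ± 0.10 (SE, adjusted p = 6.0e-05), whereas Sf3b1 went from 65.8, 68.6, 68.7 and 63.0 FPKM to 54.7, 55.5, 56.4 and 58.6, a change of -0.22 ± 0.066 (SE, adjusted p = 0.017). The fall of Sf3b1 was small but without overlap between the groups.

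**Figure D2:**
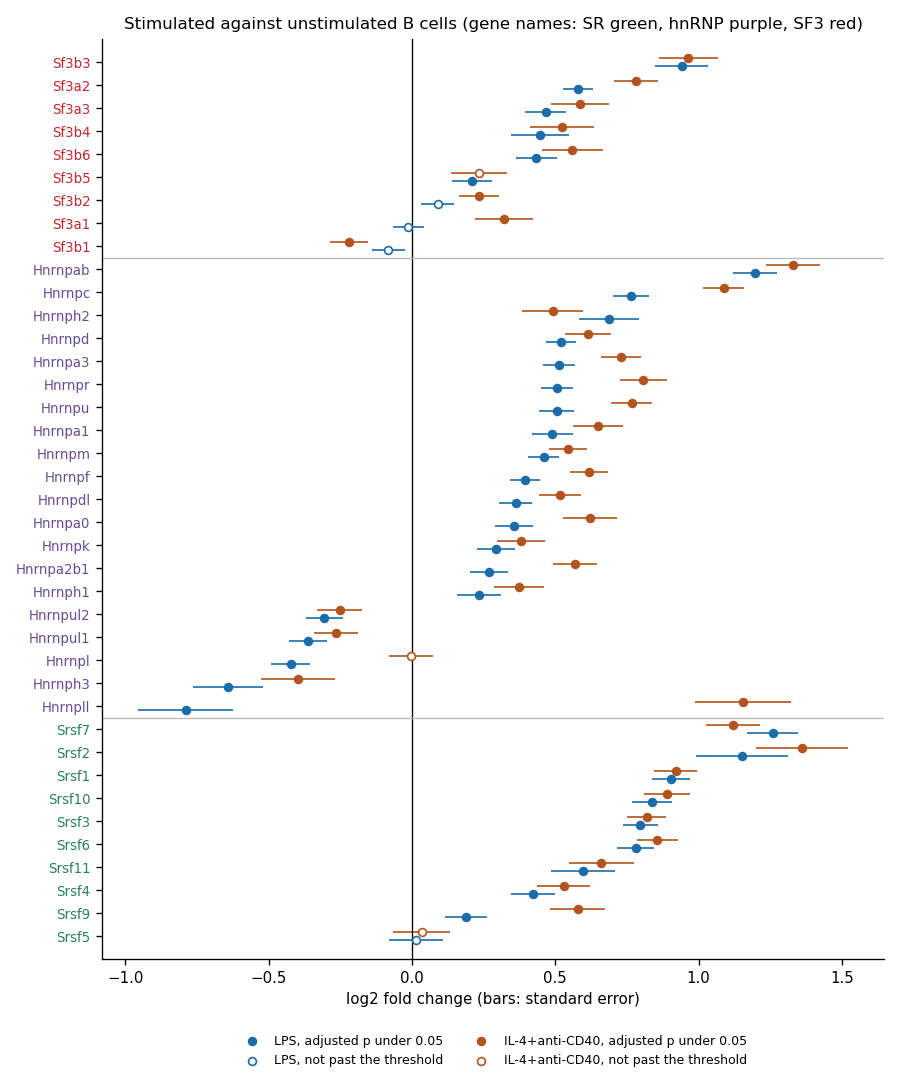
Log2 fold change of each tested member (x axis, bars are standard errors) for LPS and for IL-4+anti-CD40 against the same 4 unstimulated libraries; filled points passed the adjusted p threshold of 0.05. SR proteins lie between 0.013 and 1.36, and Hnrnpll is the member with called changes of opposite sign under the stimuli.

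Several other values moved with the stimuli. The 7 myeloid markers summed to 337 to 440 FPKM in unstimulated libraries and 92.9 to 115 with a stimulus alone, the B cell markers also fell (2418 to 3376 against 1556 to 1816), and their part in these changes was not tested. With unstimulated libraries 1 and 2 alone, 31 members rose and 5 fell with LPS and 34 rose and 3 fell under IL-4+anti-CD40, and with libraries 3 and 4 alone the counts were 30 and 5, and 32 and 4. The 4 falls with IL-4+anti-CD40 were less secure, since 1 remained called without IL-4+anti-CD40 library 1 and all lost their call without library 3. Scaling by total counts in place of TMM factors moved the median of all genes from -0.046 to -0.27 with LPS and from -0.041 to -0.19 with IL-4+anti-CD40. It left 20 members higher and 8 lower with LPS and 29 higher and 4 lower under IL-4+anti-CD40, and all 3 family medians stayed above 0.

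LPS and IL-4+anti-CD40 were then compared directly. Of the 39 members 3 were higher and 11 lower with LPS, beside 22.3% and 17.3% of the 14078 genes tested, and under total counts all 31 that were called were lower with LPS, with the median of all genes moving from -0.0062 to -0.14. The widest gap was in Hnrnpll, at 0.234, 0.210, 0.238 and 0.159 FPKM with LPS and 0.9502, 0.787, 0.604 and 0.892 under IL-4+anti-CD40. Its IL-4+anti-CD40 libraries lay above the unstimulated ones and its LPS libraries below them, with log2 fold changes of 1.16 ± 0.17 (SE, adjusted p = 3.3e-04) and -0.79 ± 0.17 (SE, adjusted p = 0.0030) against the shared unstimulated cells and -1.88 ± 0.17 (SE, adjusted p = 4.0e-06) between the stimuli. These calls held in each of the 18 to 20 alternatives that tested Hnrnpll. Hnrnpl, its more abundant relative, was 44.3, 44.6, 43.3 and 46.0 FPKM with LPS and 57.7, 61.9, 59.4 and 58.0 under IL-4+anti-CD40, against 57.4, 57.0, 63.9 and 62.8 at rest. The difference between the stimuli was -0.36 ± 0.042 (SE, adjusted p = 2.6e-05), with every LPS library lower. Srsf9 was also lower with LPS (-0.33 ± 0.073 SE, adjusted p = 0.0033) and Srsf7 higher (0.19 ± 0.046 SE, adjusted p = 0.0057).

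DSF divided the families in LPS-stimulated cells. Relative to LPS alone, 20 of 39 members rose and 11 fell, beside 35.1% and 36% of the 14154 genes tested. Among the 10 tested SR proteins 8 rose and 1 fell (median log2 fold change 0.31), among the 20 hnRNPs 11 rose and 4 fell (0.18), and among the 9 SF3 subunits 1 rose and 6 fell (-0.12), against a median of 0.0019 over all genes. Under total counts the median of all genes was -0.21, 13 members were higher and 20 lower, the SR and SF3 medians were 0.098 and -0.33, and the hnRNP median turned to -0.028.

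The SF3 subunits did not move together. Sf3a1 (mm10 chr11:4160350-4182541, plus strand), the largest SF3a subunit, was 19.2, 18.1, 18.7 and 18.5 FPKM with LPS and 8.42, 9.37, 9.53 and 8.42 with LPS and DSF. All DSF libraries lay below all LPS libraries and below the unstimulated ones, which were 18.5, 19.3, 20.1 and 18.1, and the log2 fold change was -1.04 ± 0.048 (SE, adjusted p = 6.6e-16). Sf3b1 (mm10 chr1:54985169-55027481, minus strand) went the other way, from 63.6, 63.4, 60.3 and 61.5 FPKM to 90.4, 86.6, 90.2 and 87.9, also without overlap and in FPKM above every unstimulated library, a change of 0.53 ± 0.039 (SE, adjusted p = 7.9e-12). Its place above rest depended on scaling, since total counts gave a log2 change of 0.015 against unstimulated cells. Sf3b5, a small SF3b subunit, was 10.4, 11.4, 11.4 and 10.5 FPKM with LPS and 5.50, 6.78, 6.39 and 6.30 with DSF, a change of -0.79 ± 0.067 (SE, adjusted p = 1.1e-10), and Sf3a3 was 36.2, 38.6, 38.0 and 36.9 and 24.0, 25.6, 26.7 and 28.1, a change of -0.50 ± 0.048 (SE, adjusted p = 9.6e-10). Sf3b4, Sf3b3 and Sf3a2 fell by less, with -0.26, -0.12 and -0.11, and Sf3b2 and Sf3b6 at -0.080 and -0.069 did not pass.

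The ratio of Sf3b1 to Sf3a1 FPKM within a library does not depend on scaling between libraries. It was 3.50 ± 0.0637 (SD, n = 4) at rest, 3.34 ± 0.115 with LPS and 9.97 ± 0.727 with LPS and DSF. Under IL-4+anti-CD40 it was 2.45 ± 0.399, and 6.90 ± 0.584 with DSF. The pair was chosen after its values were seen, so the ratio is a description with no test.

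Of the SR proteins, Srsf3 (mm10 chr17:29032628-29043373, plus strand) rose most, from 71.8, 69.8, 75.3 and 71.1 FPKM with LPS to 110.3, 114, 112 and 118 with DSF, a log2 change of 0.68 ± 0.040 (SE, adjusted p = 9.8e-14). Srsf5, which had not passed under LPS, was 129.8, 127, 134 and 125 FPKM and 193, 186, 191 and 196, a rise of 0.59 ± 0.039 (SE, adjusted p = 1.1e-12), and Srsf2 was 248, 257, 253 and 261 FPKM with DSF, a rise of 0.56 ± 0.038 (SE, adjusted p = 1.8e-12). In each of these the DSF libraries lay above all LPS libraries. Srsf9 (mm10 chr5:115327177-115333080, plus strand), a short SR protein, was the one that fell, from 42.0, 40.4, 43.6 and 46.0 FPKM to 28.0, 31.1, 28.1 and 29.2, a change of -0.54 ± 0.052 (SE, adjusted p = 1.3e-09). Within libraries the ratio of Srsf3 to Srsf9 FPKM was 1.68 ± 0.0896 with LPS and 3.91 ± 0.163 with DSF, a pair also chosen after its values were seen.

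The largest hnRNP rise with DSF was that of Hnrnpa2b1 (mm10 chr6:51460932-51469894, minus strand), a binder of UAG motifs in RNA, from 165, 159, 169 and 160.3 FPKM to 314, 283, 312 and 311. Its log2 fold change was 0.92 ± 0.044 (SE, adjusted p = 1.2e-15), without overlap. Hnrnpa3, of the same subfamily, was 20.4, 21.8, 21.2 and 19.8 FPKM with LPS and 41.4, 35.0, 37.3 and 35.4 with DSF (0.86 ± 0.050 SE, adjusted p = 8.4e-14), whereas Hnrnpa1 gave -0.036 ± 0.040 (SE, adjusted p = 0.43). Hnrnpc was 128, 126, 130.0 and 128 and 201, 208, 208 and 219.6 FPKM, a rise of 0.73 ± 0.039 (SE, adjusted p = 1.8e-14), and Hnrnph1 rose by 0.69. The 4 that fell changed by little. They were Hnrnpul2 (-0.25), the poly(C) binder Hnrnpk (-0.25), Hnrnpr (-0.22) and Hnrnpul1 (-0.12). Hnrnpll at 0.43 ± 0.18 (SE, adjusted p = 0.039) lost its call in 11 of 16 alternatives.

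**Figure D3:**
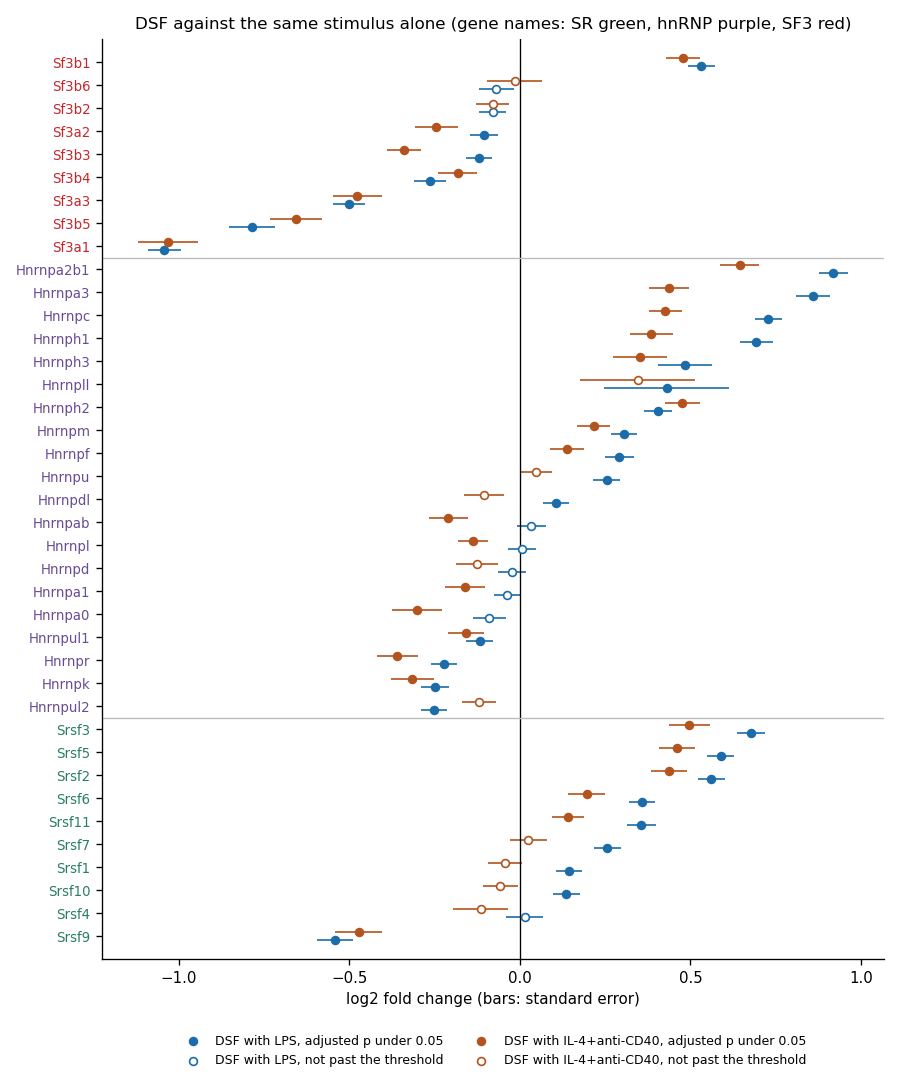
Log2 fold change of each tested member with DSF against the same stimulus alone (x axis, bars are standard errors), for LPS and for IL-4+anti-CD40; filled points passed the adjusted p threshold of 0.05. Sf3a1 is lowest near -1.04 and Hnrnpa2b1 highest at 0.92 with LPS, and Sf3b1 is the SF3 subunit above 0 under both stimuli. Under total counts the hnRNP median with LPS and the SR median with IL-4+anti-CD40 fall below 0.

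With IL-4+anti-CD40, DSF raised 14 members and lowered 14, beside 30.1% and 31.6% of the 14275 genes tested. The counts were 5 and 1 for the SR proteins (median 0.083), 8 and 7 for the hnRNPs (-0.028) and 1 and 6 for the SF3 subunits (-0.24), against a median of -0.015 over all genes. Under total counts the median of all genes was -0.16, 10 members were higher and 21 lower, the SF3 median was -0.39 and the SR median turned to -0.067.

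Sf3a1, Sf3a2, Sf3a3, Sf3b3, Sf3b4 and Sf3b5, which fell with DSF and LPS, also fell here, in libraries that the comparisons do not share. Sf3a1 was 24.8, 27.1, 21.5 and 20.01 FPKM with IL-4+anti-CD40, higher in libraries 1 and 2 than in 3 and 4, and 12.8, 11.4, 10.8 and 11.3 with DSF, a log2 change of -1.03 ± 0.089 (SE, adjusted p = 3.2e-06). The log2 fold changes of Sf3b5 and Sf3a3 were -0.66 and -0.48. Sf3b1 was 78.0, 78.9, 80.9 and 80.4 FPKM with DSF, all above the 54.7, 55.5, 56.4 and 58.6 with the stimulus alone, a rise of 0.48 ± 0.049 (SE, adjusted p = 9.0e-06). Srsf9 went from 60.3, 61.2, 48.7 and 54.0 FPKM to 41.8, 40.0, 41.3 and 40.6 (-0.47 ± 0.070 SE, adjusted p = 1.2e-04), and Srsf3 from 73.8, 75.3, 71.7 and 70.2 to 103, 96.0, 115 and 102 (0.50 ± 0.060 SE, adjusted p = 3.0e-05). Hnrnpa2b1 again rose most of the hnRNPs, from 189.9, 203, 199.5 and 208 FPKM to 302, 309, 335 and 323 (0.64 ± 0.056 SE, adjusted p = 3.4e-06), and Hnrnpr fell most (-0.36 ± 0.060 SE, adjusted p = 3.1e-04). In all of these the groups did not overlap.

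**Figure D4:**
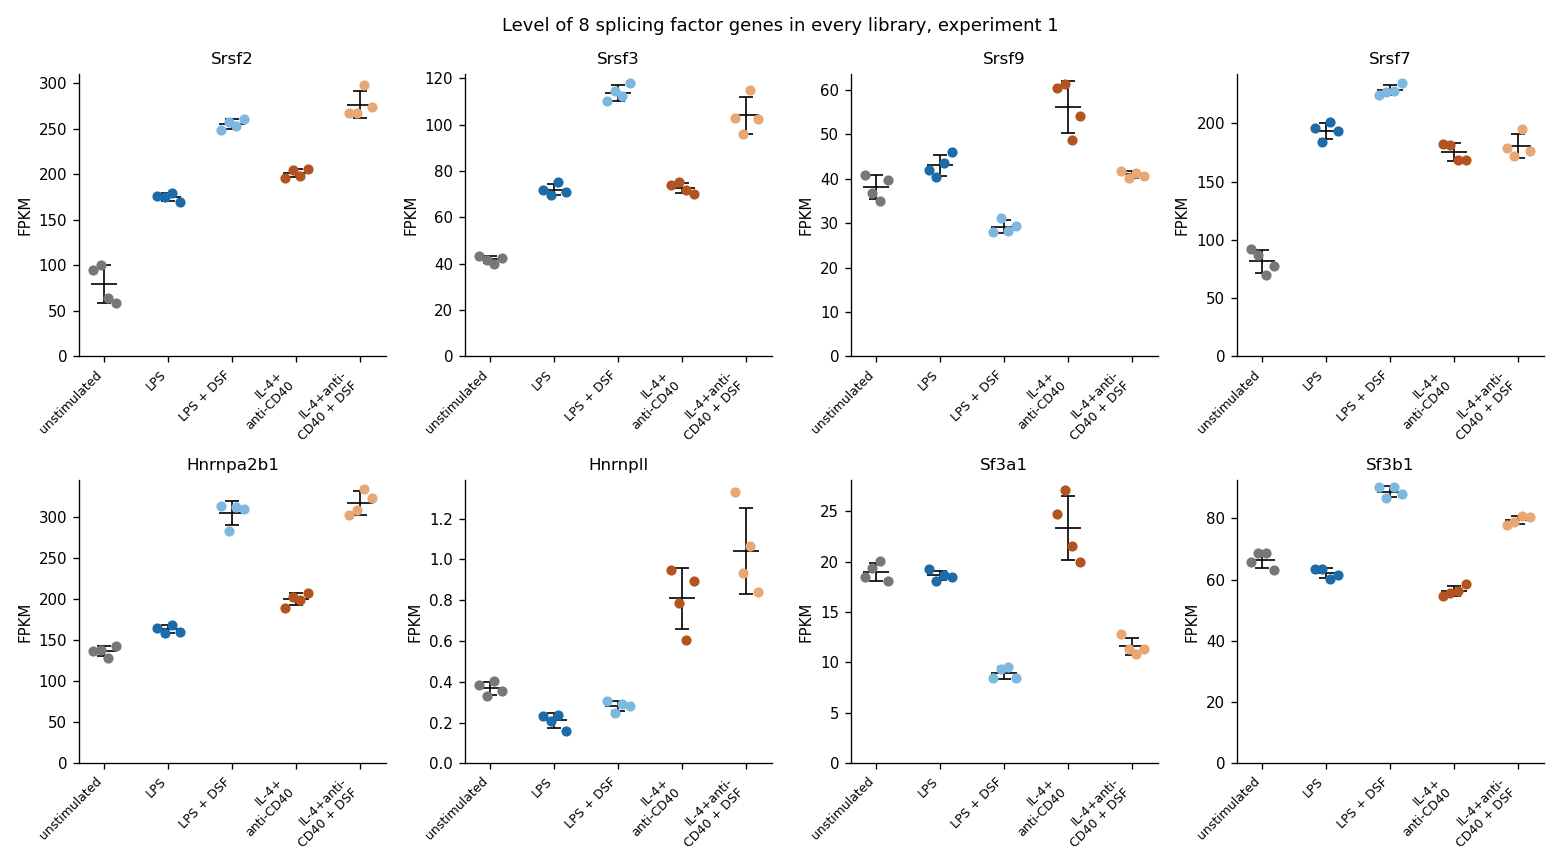
FPKM (y axes, linear from 0) of 8 members in every library of experiment 1, with the mean and SD of 4 libraries. Sf3a1 and Srsf9 are lower and Sf3b1, Srsf3 and Hnrnpa2b1 higher in every DSF library than with the stimulus alone, and Hnrnpll lies below the unstimulated level with LPS and above it with IL-4+anti-CD40.

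B cell markers moved with DSF as well, from 1626 to 1657 FPKM with LPS down to 1159 to 1232 with DSF, and from 1556 to 1816 down to 1286 to 1372 with IL-4+anti-CD40. The 7 neutrophil markers were 19.5 to 21.5 with LPS and 24.8 to 28.1 with DSF, the 7 myeloid markers 92.9 to 107 and 97.1 to 103. With IL-4+anti-CD40 the neutrophil markers were 13.4 to 18.2 and 20.01 to 24.1 and the myeloid markers 98.9 to 115 and 131 to 167, and the part of any of these in these changes was not tested. Leaving out 1 library at a time gave 17 to 20 members higher and 10 to 12 lower with LPS, and 12 to 14 higher and 10 to 15 lower with IL-4+anti-CD40.

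Against unstimulated cells, the groups with stimulus and DSF show where the members ended. With LPS and DSF 27 members were higher and 7 lower, beside 34.3% and 37.3% of the 14663 genes tested, and under IL-4+anti-CD40 with DSF 30 were higher and 4 lower, beside 33.4% and 35.3% of 14678. Srsf2 had the largest rises, at 1.69 ± 0.17 (SE, adjusted p = 2.0e-05) and 1.81 ± 0.17 (SE, adjusted p = 2.0e-05), followed by Srsf7 at 1.49 with LPS and DSF and by Hnrnpc at 1.52 with IL-4+anti-CD40 and DSF. Sf3a1 ended below rest at -1.08 ± 0.067 (SE, adjusted p = 1.4e-06) and -0.70 ± 0.069 (SE, adjusted p = 2.7e-05), as did Sf3b5 at -0.60 and -0.41. Sf3b1 stood above rest at 0.42 and 0.27, although total counts gave 0.015 and -0.039. Under total counts the medians of all genes were -0.43 and -0.31, the members split 17 to 12 and 21 to 8, and the SF3 medians turned from 0.16 and 0.27 to -0.26 and -0.039. These comparisons share their unstimulated libraries with those of the stimuli alone, and their counts are not given for either pair of unstimulated libraries alone.

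The difference of the DSF effect between the stimuli was tested over the 16 stimulated libraries. By edgeR the DSF effect was more positive with LPS for 10 members and more negative for 0 (Hnrnpul2 by DESeq2, and 1 at an unadjusted p under 0.05), beside 7.92% and 6.96% of the 15130 genes tested. These were Srsf1, Srsf7, Srsf11, Hnrnpa2b1, Hnrnpa3, Hnrnpab, Hnrnpc, Hnrnph1, Hnrnpu and Sf3b3. The gap was widest for Hnrnpa3 at 0.42 ± 0.083 (SE, adjusted p = 0.0018), with 0.86 under LPS and 0.44 under IL-4+anti-CD40. Srsf7 rose with DSF under LPS (0.26) and gave 0.025 ± 0.054 (SE, adjusted p = 0.71) under IL-4+anti-CD40, a difference of 0.23 ± 0.067 (SE, adjusted p = 0.027). The count was 1 when all 20 libraries were fitted together, 3 under total counts and 6 without LPS library 4. Hnrnpa3 was called in all of these. For the SF3 subunits with the largest falls and the rise under DSF, Sf3a1, Sf3b5 and Sf3b1, the differences were -0.015 ± 0.11 (SE, adjusted p = 0.94), -0.13 ± 0.10 (SE, adjusted p = 0.44) and 0.049 ± 0.057 (SE, adjusted p = 0.63).

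Other splicing genes give the setting of these changes. Their counts stand beside the shares of all genes that rose and fell, 29.6% and 33.3% with LPS, 35.1% and 36% with DSF and LPS, and 30.1% and 31.6% for DSF under IL-4+anti-CD40. With LPS, 9 of 10 U1 and Sm core genes, 10 of 11 tested U2 and branch site genes and 16 of 22 genes of the U4/U6.U5 particle rose, while of 8 SR protein kinase genes 2 rose and 5 fell, with Srpk2 at -0.95. With DSF and LPS the kinases split the other way, 5 rising and 1 falling, and Clk1, which phosphorylates SR proteins, rose by 1.40. Of the U4/U6.U5 genes 1 rose and 11 fell with DSF and LPS, and 12 fell with DSF and IL-4+anti-CD40, in which Clk1 rose by 1.31. Of the 18 Tra2 and SR-related genes 12 rose and 4 fell with DSF and LPS, led by Rbm39 at 0.73, and of 17 Prp19 complex and late factors 4 rose and 8 fell, with the helicase gene Dhx16 at -0.98. With DSF and LPS, U1 and Sm genes split 2 to 2, U2 genes 4 to 4 and the 9 other hnRNP genes 6 to 3. For DSF under IL-4+anti-CD40, 0 rose and 5 fell of the U1 and Sm genes, 2 and 4 of the U2 genes and 4 and 3 of the other hnRNP genes. There the Tra2 and SR-related genes split 8 to 5, the Prp19 complex and late factors 4 to 7 and the kinases 5 to 1.

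Experiment 2 held 1 library per condition, so no test was possible, and ratios of 2-fold or more were counted. All 10 SR proteins with enough counts were above 0 with LPS (median log2 ratio 0.71) and with IL-4+anti-CD40 (0.71), and the medians were 0.47 and 0.54 for the hnRNPs and 0.33 and 0.55 for the SF3 subunits. With LPS 4 members were 2-fold higher and 0 lower, beside 8.62% and 9.88% of the 14275 genes, and with IL-4+anti-CD40 also 4 and 0, beside 10.7% and 13.7%. Hnrnpll gave no clear direction with LPS at this depth, with 15 counts at rest and 26 with LPS, a depth-scaled ratio of 1.85 (95% exact interval 0.946 to 3.76, counting error only). In experiment 1 it had fallen with LPS. With IL-4+anti-CD40 it had 33 counts, a ratio to rest of 2.34 (interval 1.24 to 4.64). With DSF it was higher than with either stimulus alone. It had 83 counts with LPS and DSF, a ratio to LPS alone of 2.77 (interval 1.77 to 4.49), and 64 under IL-4+anti-CD40 with DSF, a ratio to the stimulus alone of 2.13 (interval 1.38 to 3.34). These ratios and intervals are scaled by total counts, and the intervals cover counting error only. With TMM scaling and a prior count of 2, the log2 ratios of Hnrnpll with DSF were 1.71 and 1.29, the highest of the 39 members.

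With DSF in experiment 2 the SF3 subunits again split. Under LPS 5 members were 2-fold higher and 4 lower, beside 20.3% and 19.5% of the genes, and under IL-4+anti-CD40 4 and 5, beside 21.9% and 20.3%. The SF3 median was -0.80 and -0.76, with 8 of 9 subunits below 0 each time, against -0.040 and -0.0083 over all genes. Sf3a1 was 21.1 FPKM with LPS, 7.30 with DSF and 19.1 with ibrutinib, and with IL-4+anti-CD40 the values were 24.9, 7.48 and 22.6. Sf3b1 was 62.2, 138 and 65.2 in the same order with LPS, and 53.4, 116 and 55.8 under IL-4+anti-CD40. The ratio of Sf3b1 to Sf3a1 was 2.95 with LPS, 18.9 with DSF and 3.41 with ibrutinib, so the DSF library alone stood apart, and 2.15, 15.4 and 2.47 with IL-4+anti-CD40.

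Among the 20 members that rose with DSF and LPS in experiment 1, 16 had the same sign here, as did all 11 that fell. With IL-4+anti-CD40 the numbers were 14 of 14 and 12 of 14. The share of same signs over all called genes was not computed, so these counts cannot be read as particular to the members. Srsf12 had 11 counts with LPS and DSF and 1 or 2 in each other library. Srsf9 gave log2 ratios of -1.12 and -1.06 with DSF, Hnrnpa2b1 1.36 and 1.23, Hnrnpa3 1.40 and 1.15, Srsf3 0.83 and 0.71, and Hnrnpr -0.94 and -0.87. The 4 of opposite sign with LPS were Srsf7 (0.26 in experiment 1, -0.28 here), Srsf1 (0.15 and -0.12), Srsf10 (0.14 and -0.24) and Hnrnpdl (0.11 and -0.24). Those of opposite sign with IL-4+anti-CD40 were Hnrnpa1 and Hnrnpl, the latter at -0.14 in experiment 1 and 0.33 here. The SR medians were 0.069 and 0.057 and turned to -0.24 and -0.19 under total counts, where the median of all genes was -0.34 and -0.25.

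Ibrutinib at the same dose and time gave 0 members 2-fold higher and 0 lower, beside 2.81% of genes higher and 2.47% lower under LPS and 2.23% and 1.69% under IL-4+anti-CD40. Over the 39 members log2 ratios ran from -0.50 to 0.16 with LPS and from -0.56 to 0.14 with IL-4+anti-CD40, with medians of -0.12 and -0.085. Hnrnpab was lowest in both, at 217 FPKM with LPS and 151 with ibrutinib, and 239 and 162 under IL-4+anti-CD40. With 1 library each, these values compare libraries and not drugs.

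**Figure D5:**
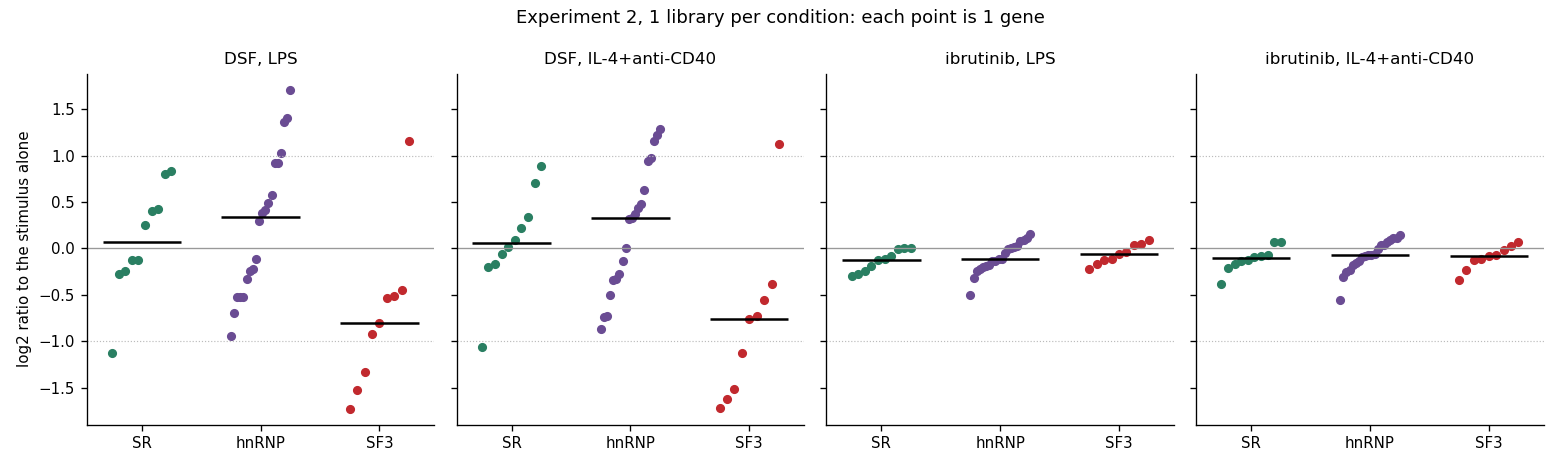
Log2 ratio to the same stimulus alone (y axis; dotted lines mark 2-fold) for each member in experiment 2, by family, with 1 library per condition; the black line is the family median. With DSF the SF3 medians are -0.80 and -0.76 with 1 subunit above 0, Sf3b1, and with ibrutinib all members lie within 2-fold. Under total counts the SR medians with DSF fall below 0.

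Exons of 9 members overlap those of a protein-coding neighbour in GENCODE vM21, and the strand setting of the counting was not given in the sources used here, so reads there cannot be assigned with certainty. These are Srsf2 (Mfsd11 and Mettl23), Hnrnpab (Phykpl), Hnrnph3 (Rufy2), Hnrnpk (Rmi1), Hnrnpm (March2), Hnrnpu (Cox20), Hnrnpul2 (AC129217.1, which has no counts here), Sf3a2 (Plekhj1) and Sf3b3 (Cog4). The neighbours of Hnrnpm and Hnrnpul2 lie on the same strand as the member, where no strand setting would separate the reads. Of the neighbours with counts, that of Hnrnph3 is the closest in depth, with a mean of 451 counts against 680.4 for Hnrnph3. Gene counts also do not separate the isoforms of a member, including those with poison exons that SR genes are known to make.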

How the data were processed

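Messenger RNA of mouse splenic B cells was sequenced in 20 libraries of experiment 1 and 7 of experiment 2. Per the submitters' processing notes and the study's methods, the authors trimmed reads with fastp, aligned them to mm10 with HISAT2 2.0.5 and counted them per gene with featureCounts 1.5.0-p3. The annotation release and strand setting were not given in the sources used here. The deposited count tables hold whole counts per gene. The deposited FPKM tables hold the authors' values per kilobase of gene length and were used for levels. Counts and FPKM set side by side show that these values are not scaled to the total counts. They carry a library factor of their own, which the sources used here did not give. Levels, sums and overlaps in FPKM, and fits on FPKM, rest on that factor and not on total counts.

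Groups were taken from the labels. For each of 8 comparisons the counts of the groups concerned were fitted alone with edgeR 4.0.16 (quasi-likelihood F test, TMM factors, filterByExpr) in R 4.3.3, and p-values were adjusted by Benjamini-Hochberg over all genes tested with a threshold of 0.05. Standard errors were taken from the F statistic. Experiment 2 has 1 library per condition, and its values are log2 ratios of TMM-scaled CPM computed here from the deposited counts with a prior count of 2, for genes averaging 10 counts or more. A member was set to be given in every library where it had the largest called rise or fall of its family in a comparison of a stimulus or DSF, or passed the test of the difference between the stimuli, which took in 19 genes. Library values were printed for only part of these cases. Srsf1, Srsf11, Hnrnph1, Hnrnpu, Hnrnpr and Hnrnpul2 were given by log2 values alone. Others given with library values (Srsf5, Hnrnpl, Sf3a3 and Sf3b5) and the ratios of 2 members were chosen after their values were seen. The members, gene lists, markers and motifs were chosen with earlier results of these data known. Alternatives used DESeq2 1.42.0, limma 3.58.1 on log2(FPKM + 1) and log2(FPKM + 0.1), other scalings and filters, all 20 libraries in 1 fit, a replicate block and leaving out libraries. The fits on pairs of unstimulated libraries were added after seeing the data.

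The fits were tested on counts simulated for DSF with LPS against LPS alone, with 200 genes changed 2-fold. Of these edgeR found 200 with 8 false calls, and DESeq2 200 with 14. The simulated libraries were independent and shared the same spread, so this does not cover groups whose libraries stand in pairs. The chi-square per gene between replicates of a group, 2.74 to 81.5 over 30 pairs, exceeded the sampling noise, so no library was counted as a repeat. In unstimulated cells it was 2.74 for libraries 1 and 2 and 6.14 for 3 and 4, against 76.2 to 81.5 across these pairs. With IL-4+anti-CD40 it was 3.30 and 5.88 for the same numbers, against 14.0 to 24.3 across. Whether these pairs are batches was not tested.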

Additional observations from a re-analysis of the deposited data

Results flagged for a closer look

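In 12 of 215 groups of 4 values, 1 library stood apart from the other 3 by a gap past the critical value of Dixon's test, where chance gives about 5% of groups. In unstimulated cells this was Sf3a2 in library 4 at 28.2 FPKM against a median of 31.6 in the others. With LPS it was Hnrnph3 in library 2 at 8.25 against 7.54 and Sf3a2 in library 3 at 44.9 against 45.9. With LPS and DSF the libraries were 3 for Srsf6 at 144 against 151, 2 for Hnrnpa2b1 at 283 against 312, 1 for Hnrnpu at 109 against 104, and 4 for the hnRNP sum at 2290 against 2230. With IL-4+anti-CD40 they were 4 for Srsf12 at 0.0331 against 0.0149, 2 for Hnrnpf at 191 against 177 and 2 for Sf3a2 at 58.6 against 50.2. With IL-4+anti-CD40 and DSF they were 4 for Srsf12, listed at 0 against 0.0158, and 3 for Hnrnpul1 at 21.3 against 23.0.

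The DSF effect differed between the stimuli for 10 members by the interaction test in edgeR. On the log2 scale the effect with LPS exceeded that with IL-4+anti-CD40 by 0.42 for Hnrnpa3, 0.30 for Hnrnpc and Hnrnph1, 0.27 for Hnrnpa2b1, 0.24 for Hnrnpab, 0.23 for Srsf7, 0.22 for Sf3b3, 0.21 for Srsf11, 0.20 for Hnrnpu and 0.18 for Srsf1, with adjusted p from 0.0018 to 0.049. Of 26 alternatives the call held in 26 for Hnrnpa3, in 25 for Hnrnpa2b1 and Hnrnpc, in 23 for Hnrnph1 and Hnrnpu, in 20 for Sf3b3, in 19 for Srsf11, in 16 for Srsf7, in 7 for Hnrnpab and in 3 for Srsf1.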

How the results depend on the processing

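Across all alternatives, 344 counts of called members were within 1.5 times the value reported and 24 were not, and the calls of named members held in 2285 cases, were lost in 158 and turned in 5. Scaling by total counts moved the most, and by construction it shifts all genes of a library together. Under it the members lower with LPS were 8, DSF with LPS gave 13 higher and 20 lower, LPS against IL-4+anti-CD40 gave 0 higher and 31 lower, LPS with DSF against unstimulated cells gave 17 and 12, IL-4+anti-CD40 with DSF gave 8 lower, and the difference of the DSF effect was called higher for 3 and lower for 1. The turned log2 values, all under total counts, were Srsf9 with LPS at -0.039, Srsf1 with DSF and LPS at -0.063, Srsf11 with DSF and IL-4+anti-CD40 at -0.0084, Hnrnpr with LPS and DSF against unstimulated at -0.15 and Sf3b1 with IL-4+anti-CD40 and DSF against unstimulated at -0.039. The fit of all 20 libraries gave 9 lower with DSF and IL-4+anti-CD40 and 1 higher in the difference, where keeping genes with any count gave 4, limma on all genes above 0 gave 5, and DESeq2 gave 1 lower, and the cause was not tested. In experiment 2, total counts gave 1 member 2-fold higher with LPS, 2 with IL-4+anti-CD40, 3 higher and 7 lower with DSF and LPS and 1 higher with DSF and IL-4+anti-CD40, and a mean of at least 50 counts left 3 lower there. Leaving out 1 library gave 28 to 30 higher and 5 lower with LPS, 31 to 33 higher and 0 to 4 lower with IL-4+anti-CD40, 17 to 20 and 10 to 12 with DSF and LPS, 12 to 14 and 10 to 15 with DSF and IL-4+anti-CD40, and 6 to 13 higher in the difference, the 6 being without LPS library 4.

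The replicate numbers gave no clear pairing of the libraries, since the correlations of same-numbered libraries ran from -0.056 to 0.169. The highest, 0.169 and 0.147, were for numbers 1 and 4 between IL-4+anti-CD40 with and without DSF. In 0 of 20 libraries was the own number the best match in every other group at once. That rule is rarely met with or without weak pairing, so this count decides little. With the replicate block, members higher and lower were 28 and 5 with LPS, 32 and 4 under IL-4+anti-CD40, 20 and 11 with DSF and LPS, 12 and 12 with DSF and IL-4+anti-CD40, 3 and 9 for LPS against IL-4+anti-CD40, and 10 and 0 in the difference.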
